A study of Mus musculus with 12 samples.

Results

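Polycomb repressive complex 2 (PRC2) is the enzyme complex that methylates histone H3 at lysine 27. Its transcripts were followed here through 9 genes, chosen by symbol and matched to Ensembl gene IDs: Ezh1, Ezh2, Eed, Suz12, Jarid2, Mtf2, Phf19, Aebp2 and Epop. All 9 were found among the 43346 gene IDs of the deposited table, and all 9 passed the filter on low counts with 17148 genes tested. They lie on GRCm38 at chr11:101191115-101226463 (Ezh1, minus strand), chr6:47530139-47595341 (Ezh2, minus), chr7:89954654-89980983 (Eed, minus), chr11:79993106-80034123 (Suz12, plus), chr13:44729474-44921643 (Jarid2, plus), chr5:108065674-108109004 (Mtf2, plus), chr2:34893757-34914026 (Phf19, minus), chr6:140622663-140678472 (Aebp2, plus) and chr11:97627389-97629702 (Epop, minus). Thus 3 of the 9 are on chromosome 11 and 1 is on chromosome 13.

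Either Ezh1 or Ezh2 carries the methyltransferase site of a PRC2 complex. Eed, which binds methylated lysine 27, and Suz12, the scaffold, are needed with them for activity. The core then takes alternative partners: Mtf2, Phf19 and Epop belong to the form called PRC2.1, in which the Polycomb-like proteins Mtf2 and Phf19 bring the complex to CpG-rich DNA, and Jarid2 and Aebp2 belong to PRC2.2, which recognises ubiquitinated histone H2A. In embryonic stem (ES) cells the mark lies over the silent promoters of developmental regulators such as the Hox genes.

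The cells were mouse ES cells of 4 groups, each with 3 libraries. B6 is C57BL/6J and D2 is DBA/2J, a pair of inbred strains. B6-13D2, with the strain name B6.D2-(rs30079041-rs51756099)/Bakr and the laboratory name QJ, has a chromosome 13 segment from D2 in an otherwise B6 genome. D2-13B6, laboratory name XE, is the reverse, a B6 segment in a D2 genome, and its sample labels read D2.B6-(rs29224292-rs13469455)/Bakr whereas the design text ends that segment at rs51756099. The labels give marker names without positions, so whether Jarid2 lies inside the segment was not determined. All groups grew in medium with 15% fetal bovine serum, LIF, 1 µM PD0325901 (a MEK inhibitor) and 3 µM CHIR99021 (a GSK3 inhibitor). By the protocol a strain is represented by a single line in independent cultures, although the titles speak of technical replicates, name another line for B6 replicate 3, and disagree with the cell line field for D2. Strain and line therefore cannot be told apart, and p-values measure the spread between these libraries.

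Library totals ranged from 22184196 to 36411799 expected counts. Of 8 ES cell markers, none was at 0 in any library, and their summed level was 3959 to 4339 CPM (counts scaled to a common library size) in B6 and 2941 to 3017 in D2, with 4711 to 5024 in B6-13D2 and 3704 to 3781 in D2-13B6. A list of 6 fibroblast genes (Col1a1, Col1a2, Col3a1, Thy1, Postn and Twist2) was also detected in every library, although the growth protocol mentions no feeder cells. Its sum was 9352 to 10159 CPM in B6 and 14128 to 16911 in D2, with 3083 to 3170.4 in B6-13D2 and 7704 to 8029 in D2-13B6. The sum of 6 trophoblast genes was 55.6 to 64.5 CPM in B6 and 46.3 to 49.4 in D2, with 82.9 to 86.1 in B6-13D2 and 27.5 to 29.1 in D2-13B6. The sum of 6 primitive endoderm genes was lowest in B6-13D2 (7.21 to 7.82 CPM) and highest in D2-13B6 (15 to 15.4 CPM), and that of 5 neural genes was lowest in B6-13D2 (83.9 to 87.2 CPM) and highest in D2 (121 to 129 CPM). Sums of each of these 5 lists thus differed between at least some groups by more than their spread within groups, and their part in the PRC2 differences was not tested. In such bulk samples fewer cells of a type and less RNA per cell cannot be told apart. The files name the congenic columns with a prefix that the parental columns lack. A batch behind it would hold complete groups, and it could not be told apart from the congenic lines.

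Promoters are printed for both catalytic genes and for Suz12 and Phf19, because Ezh2, Suz12 and Phf19 were the 3 members whose start region held an E2F-type match, E2F being the family of factors that drives genes of the cell division cycle. Each is RefSeq sequence of build GRCm38.p6, from 250 bases before to 50 after the annotated start, read along the gene's strand: chr6:47594981-47595280 minus for Ezh2, chr11:79992856-79993155 plus for Suz12, chr2:34913927-34914226 minus for Phf19 and chr11:101226414-101226713 minus for Ezh1. Capitals mark matches on either strand to TTTCCCGC, TTTCGCGC, TTTGCCGC or TTTGGCGC (E2F type) and to CCAAT. No E2F-type match overlapped a CCAAT match.
Ezh2: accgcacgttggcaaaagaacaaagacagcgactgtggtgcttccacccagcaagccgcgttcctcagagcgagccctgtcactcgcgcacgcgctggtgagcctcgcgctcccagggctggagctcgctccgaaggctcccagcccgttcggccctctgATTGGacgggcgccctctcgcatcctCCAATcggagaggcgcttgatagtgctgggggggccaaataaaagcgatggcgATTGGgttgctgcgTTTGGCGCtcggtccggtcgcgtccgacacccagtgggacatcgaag
Suz12: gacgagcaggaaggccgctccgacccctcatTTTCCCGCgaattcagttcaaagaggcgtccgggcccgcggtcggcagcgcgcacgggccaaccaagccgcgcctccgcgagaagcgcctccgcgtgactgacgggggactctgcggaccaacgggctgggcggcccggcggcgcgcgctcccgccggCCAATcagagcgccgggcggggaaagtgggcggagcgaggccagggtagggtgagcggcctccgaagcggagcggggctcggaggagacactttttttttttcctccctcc
Phf19: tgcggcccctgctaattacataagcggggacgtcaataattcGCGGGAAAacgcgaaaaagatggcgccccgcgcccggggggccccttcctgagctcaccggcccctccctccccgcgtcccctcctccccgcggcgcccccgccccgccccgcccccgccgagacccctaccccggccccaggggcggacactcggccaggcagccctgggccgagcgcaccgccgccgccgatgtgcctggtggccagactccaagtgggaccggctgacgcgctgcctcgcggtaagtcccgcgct
Ezh1: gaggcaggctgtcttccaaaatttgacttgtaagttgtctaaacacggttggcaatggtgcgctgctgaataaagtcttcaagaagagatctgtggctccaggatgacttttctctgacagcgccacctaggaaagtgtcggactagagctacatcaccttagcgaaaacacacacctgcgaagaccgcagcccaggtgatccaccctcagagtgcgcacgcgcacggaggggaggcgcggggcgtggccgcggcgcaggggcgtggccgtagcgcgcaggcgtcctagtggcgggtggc

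The E2F-type letters occurred in 744 of 32851 promoters of that length (2.26%), and CCAAT in 37.4%. Ezh2 had 1 E2F-type and 3 CCAAT matches, Suz12 had 1 of each, Phf19 had 1 E2F-type match, and the Ezh1 window had neither. The 4 windows held many CG steps: 31 in the Ezh2 window, 41 in Suz12, 38 in Phf19 and 23 in Ezh1, against a median of 7 over all promoters. The RefSeq table held promoters for the members other than Epop, with several starts for Jarid2, Mtf2 and Aebp2. The windows not printed held from 2 CG steps (second Mtf2 start) to 30 (first Mtf2 start). These matches describe letters only, and no binding was measured.

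Per length of merged exon, the order of the 9 transcripts by group mean was the same in each of the 4 groups: Epop highest, then Suz12, Mtf2, Eed, Jarid2, Ezh2, Aebp2, Ezh1 and Phf19. In B6 the mean level was 163 ± 11.6 CPM per kb for Epop, 77.8 ± 2.9 for Suz12, 48.8 ± 0.82 for Mtf2, 42.5 ± 1.54 for Eed and 32.9 ± 0.509 for Jarid2 (SD, n = 3). Ezh2 stood at 21.7 ± 0.786 CPM per kb there, Aebp2 at 15.9 ± 0.529, Ezh1 at 3.32 ± 0.0504 and Phf19 at 0.667 ± 0.0783. Ezh2 was thus the main catalytic transcript in these cells, and Mtf2 by far exceeded Phf19 between the Polycomb-like genes. Libraries of neighbouring genes in this order did not overlap within a group, except Jarid2 (26.6 to 27.2 CPM per kb) and Ezh2 (26.1 to 26.6) in B6-13D2, which met at 26.6. Exon length pools all annotated isoforms, so these levels depend on the annotation.

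**Figure D1:**
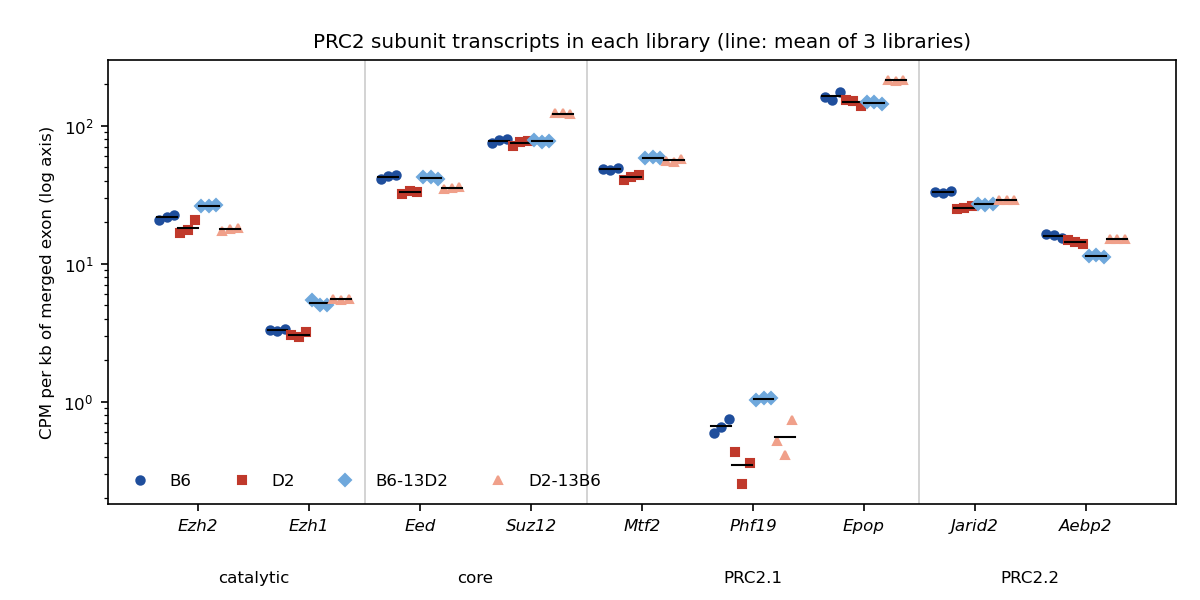
Level of each PRC2 transcript in each library, in CPM per kb of merged exon on a log axis, grouped by role in the complex; each point is 1 library and each line a mean of 3. Suz12 and Epop stand apart in D2-13B6 (122 and 213 CPM per kb), and Ezh1 is higher in both congenic lines than in both parental strains.

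D2 cells had less PRC2 transcript than B6 cells for most subunits. In this comparison of the parental strains, 7 of the 9 genes were called, that is, had an edgeR adjusted p under 0.05 over all genes tested, and all 7 were lower in D2. Over all 17148 genes 60.0% passed that threshold, with 29.8% up in D2 and 30.3% down, so a call as such is common here. The higher genes made up 49.6% of these calls, and 56.7% with RLE size factors. The members' median log2 fold change was -0.21, against 0.012 over all genes. The summed CPM of the 9 genes was 1822 to 1907 in B6 and 1595 to 1636 in D2.

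Of the catalytic pair, Ezh2 measured 139, 146 and 149.8 CPM in the B6 libraries and 111, 118 and 138 CPM in the D2 libraries. The groups did not overlap, although D2 replicate 3 came close to the lowest B6 library. The fold in D2 was 0.841 (95% interval 0.778 to 0.91; edgeR, adjusted p 0.00121). That library had the lowest sums of the D2 group for both the fibroblast genes (14128 CPM against 15968 and 16911) and the ES cell markers (2941 CPM against 3014 and 3017). Ezh1, which partly substitutes for Ezh2, measured 24.4 to 25.1 CPM in B6 and 21.9 to 23.8 CPM in D2; its log2 difference of -0.12 was not called (edgeR, adjusted p 0.0599), but was without D2 replicate 3 (adjusted p 0.0319) or B6-13D2 replicate 1 (0.0442).

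In the core, Eed fell from 156, 164 and 167 CPM in B6 to 123, 128 and 126 CPM in D2. All D2 libraries were below all B6 libraries, and the fold was 0.773 (95% interval 0.737 to 0.811; edgeR, adjusted p 6.78e-08). Suz12 did not pass the test: it measured 369 to 396 CPM in B6 and 356 to 384 CPM in D2, with overlapping libraries and a 95% interval of the fold from 0.919 to 1.01. Among the partners of PRC2.1, Mtf2 was lower, with 232 to 249.7 CPM in D2 against 273 to 283 in B6 (fold 0.866; edgeR, adjusted p 4.87e-05). Phf19 was low in both strains, with 68, 79 and 88 expected counts in the B6 libraries and 52, 46 and 40 in the D2 libraries. All D2 libraries were lower in CPM. The fold of 0.51 (95% interval 0.379 to 0.687; edgeR, adjusted p 0.000974) was the largest difference of the set, and only 12.9% of tested genes had a larger absolute log2 change.

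For the PRC2.2 partners, Jarid2, which helps the complex onto its targets, measured 320.4, 315 and 325 CPM in B6 and 243, 247 and 255 CPM in D2. Its groups were far apart, with a fold of 0.775 (95% interval 0.744 to 0.809; edgeR, adjusted p 1.54e-08). Aebp2 was lower in D2 by a small amount (fold 0.899; edgeR, adjusted p 0.00124). Epop, a PRC2.1 partner that also binds elongin, was called lower (log2 -0.13; edgeR, adjusted p 0.0215), but its libraries overlapped. That call was lost with DESeq2 (-0.081), RLE size factors (-0.081), a filter on mean CPM (-0.083) or only the libraries compared (-0.13). It was also lost without B6 replicate 3 (-0.078) or D2 replicate 3 (-0.087). In this comparison 6 of 6 fibroblast genes were higher in D2, while 6 of 8 ES cell markers were lower and 1 was higher.

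The next comparison asks what changed with the D2 segment on the B6 background. In B6-13D2 against B6, Ezh1, Ezh2, Mtf2 and Phf19 were higher, Jarid2, Aebp2 and Epop were lower, and Eed and Suz12 were not called. Thus 7 of 9 members were called, 4 higher and 3 lower. Over all genes 58.3% were called, 25.4% higher and 32.9% lower. The higher genes made up 43.5% of these calls, and 52% with RLE size factors. The members' median log2 fold change was -0.013 and that of all genes -0.035, so the set moved in no common direction.

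Both catalytic genes rose. Ezh1 went from 24.6, 24.4 and 25.1 CPM in B6 to 40.9, 37.4 and 37.5 CPM in B6-13D2, with every congenic library far above the parental ones. The fold was 1.56 (95% interval 1.46 to 1.67; edgeR, adjusted p 4.66e-09). Ezh2 measured 175, 174 and 178 CPM in B6-13D2, the highest of the 4 groups, and its fold over B6 was 1.21 (95% interval 1.12 to 1.31; edgeR, adjusted p 0.000388). The core genes stayed close to B6. Eed measured 157 to 162 CPM against 156 to 167, with a 95% interval of the fold from 0.941 to 1.03, and Suz12 376 to 387 CPM against 369 to 396, with an interval from 0.944 to 1.04. The signs of these Eed and Suz12 differences depended on the scaling, at log2 0.044 and 0.051 with RLE size factors.

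Of the Polycomb-like genes, Mtf2 and Phf19 rose, while Phf1, which is not among the 9, fell (log2 -0.29). Mtf2 measured 331, 341 and 333 CPM in B6-13D2 against 273 to 283 in B6 (fold 1.2; edgeR, adjusted p 2.41e-06). Phf19 had 143 to 159 expected counts per library against 68 to 88 in B6, a fold of 1.58 (95% interval 1.22 to 2.04; edgeR, adjusted p 0.00624). Both PRC2.2 partners fell. Aebp2, a zinc finger protein that stabilises the complex, went from 160.4, 159.8 and 151 CPM to 113, 114 and 110.4 CPM. The libraries were well separated and the fold was 0.714 (95% interval 0.68 to 0.75; edgeR, adjusted p 2.25e-09). Jarid2 measured 264, 259 and 264 CPM, below all B6 libraries (fold 0.82; edgeR, adjusted p 2.77e-07).

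Epop was called lower in B6-13D2 (log2 -0.15; edgeR, adjusted p 0.0122), with 330.2 to 346 CPM against 355 to 407. This call ended under both DESeq2 and RLE scaling (-0.085 in each) and with only the libraries compared (-0.11). It also ended without B6 replicate 3 (-0.089) or B6-13D2 replicate 3 (-0.12). All 6 fibroblast genes were lower in B6-13D2 and all 8 ES cell markers higher. The median log2 fold changes of those lists were -1.53 and 0.27.

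On the D2 background, the line with the B6 segment had more transcript of most subunits. In D2-13B6 against D2, 7 of 9 members were called and all 7 were higher, among them the 3 genes of chromosome 11. Ezh2 and Aebp2 were not called. Over all genes 57.3% were called, with 27.6% higher and 29.7% lower in the congenic line. The members' median log2 fold change was 0.41, against 0 over all genes. The summed CPM of the 9 was 2137 to 2156 in D2-13B6. Suz12 (372 to 605) and Epop (344 to 493), both on chromosome 11, had the largest rises in mean CPM over D2.

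Ezh1 rose from 22.6, 21.9 and 23.8 CPM in D2 to 41.3, 40.3 and 41.3 CPM in D2-13B6. The groups were far apart, and the fold was 1.8 (95% interval 1.69 to 1.93; edgeR, adjusted p 1.07e-10). Ezh2 measured 117, 119 and 122 CPM in D2-13B6, inside the range of the D2 libraries. Its log2 difference was -0.033 (95% interval of the fold 0.904 to 1.06; edgeR, adjusted p 0.649). Without D2 replicate 3 the value was 0.057 and still not called. In the core, Suz12 rose from 356, 375 and 384 CPM to 609.7, 607 and 600.1 CPM. No other group came near this level, and the fold was 1.63 (95% interval 1.55 to 1.71; edgeR, adjusted p 1.87e-11).

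Eed rose slightly, with 134 to 137 CPM against 123 to 128 in D2 (fold 1.08; edgeR, adjusted p 0.0127). That call was lost with a filter on mean CPM (log2 0.071) and without D2-13B6 replicate 3 (adjusted p 0.0509). In PRC2.1, Mtf2 rose from 232, 241 and 249.7 CPM to 319, 314 and 328 CPM, with wide separation (fold 1.33; edgeR, adjusted p 1.19e-08). Epop measured 493, 490.3 and 494 CPM, its highest level in the study, against 321 to 359.7 in D2 (fold 1.43; edgeR, adjusted p 3.86e-08). Phf19 was called higher (log2 0.69; edgeR, adjusted p 0.0109) on 75 to 109 expected counts per library, but its CPM overlapped with D2. Its value was 0.46 and not called without D2 replicate 2, and 0.45 and not called without D2-13B6 replicate 3.

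In PRC2.2, Jarid2 measured 282, 279 and 282 CPM in D2-13B6, above all D2 libraries at 243 to 255 (fold 1.13; edgeR, adjusted p 7.04e-05). Aebp2 measured 147 to 149 CPM against 136 to 146 in D2, a log2 difference of 0.07 that was not called (edgeR, adjusted p 0.101) but was without D2 replicate 1 (0.11, adjusted p 0.0242). Here too the marker lists moved. All 6 fibroblast genes were lower in D2-13B6, and of 8 ES cell markers 6 were higher and 1 lower.

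**Figure D2:**
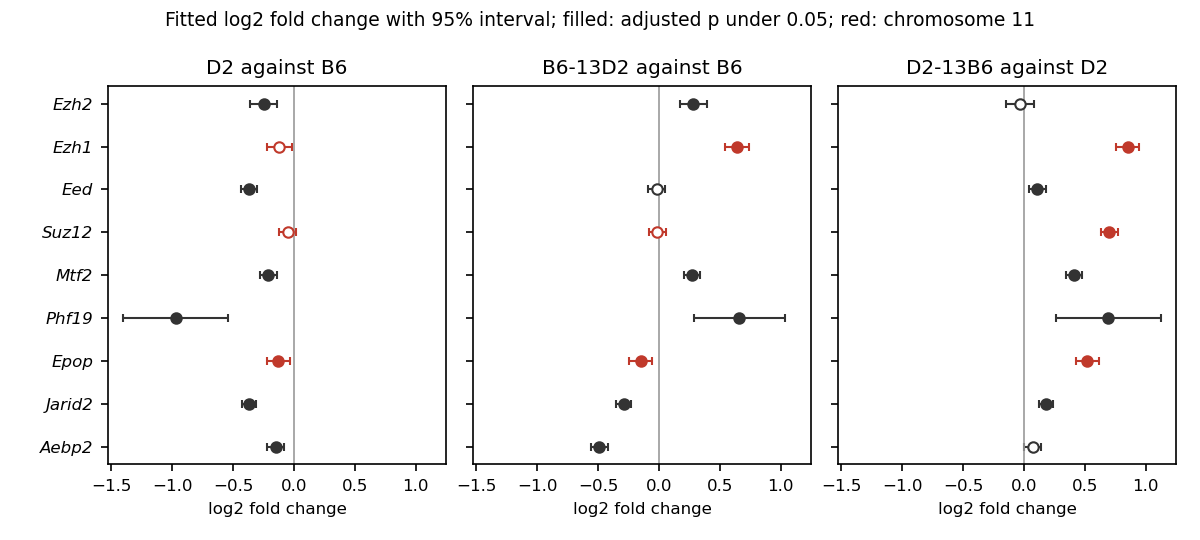
Fitted log2 fold change of each PRC2 gene in the comparison of the parental strains and in each congenic line against the strain of its background; bars are 95% intervals, filled points were called and red marks chromosome 11. All called points lie left of 0 in D2 against B6 and right of 0 in D2-13B6 against D2, and they split in B6-13D2 against B6.

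The comparisons of the congenic lines with their background strains have no library in common, while D2 against B6 shares the B6 libraries with that of B6-13D2 and the D2 libraries with that of D2-13B6, so calls are set side by side for the congenic comparisons alone. Ezh1, Mtf2 and Phf19 were called higher in both congenic lines, but Phf19 leaves this set without D2 replicate 2 (0.46 in D2-13B6 against D2) or D2-13B6 replicate 3 (0.45). Of all genes 12.4% were called higher in both, and 19.8% lower in both, a pattern found in no member. Jarid2 and Epop were called lower with the D2 segment on both backgrounds, as were 4.31% of all genes, and 7.33% were called in the same segment direction on both, whichever it was. Epop leaves this pair under the settings that ended its call in B6-13D2 against B6, DESeq2 and RLE scaling among them. For Jarid2 the levels followed that pattern within each background: 320.0 CPM in B6 against 262 in B6-13D2, and 281 in D2-13B6 against 248 in D2. The difference of its log2 effects between backgrounds was -0.11 (edgeR, adjusted p 0.0392), a call lost with DESeq2, with RLE size factors, with no filter and in 9 of 12 fits that left out a single library. No member was called higher with the D2 segment on both backgrounds, against 3.02% of all genes.

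Of the 9 genes, 4 lie on chromosomes 11 and 13, where neighbouring genes also differed. In D2-13B6 against D2 the median log2 fold change of the 1386 tested chromosome 11 genes was 0.39, and that of the other autosomes was -0.026. Ezh1 lay 0.46 above the chromosome 11 median, Suz12 0.31 and Epop 0.13. On that chromosome 216 genes had a higher fold change than Ezh1, 318 a higher one than Suz12 and 541 a higher one than Epop. Against the 20 nearest tested genes, Ezh1 exceeded 19 (their median was 0.18), Suz12 exceeded 16 (median 0.50) and Epop exceeded 9 (median 0.56). The Epop value was therefore within that of its surroundings, and the difference of Ezh1 was larger than that of nearly all its neighbours.

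The chromosome as a whole had a median of -0.0011 in B6-13D2 against B6. Ezh1 rose there too, above 17 of its 20 neighbours. For Jarid2 the 20 nearest genes, between 42301476 and 46929867 on chromosome 13, had a median log2 fold change of -0.25 in B6-13D2 against B6, close to the -0.29 of Jarid2, and 10 of the 20 lay below it. In D2-13B6 against D2 their median was -0.47, while Jarid2 was at 0.18 and above 19 of 20. Phf19 exceeded all 20 of its neighbours on chromosome 2 in both of these comparisons. By the protocol D2-13B6 is a single line, so a property of that line and an effect of the segment cannot be told apart.

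**Figure D3:**
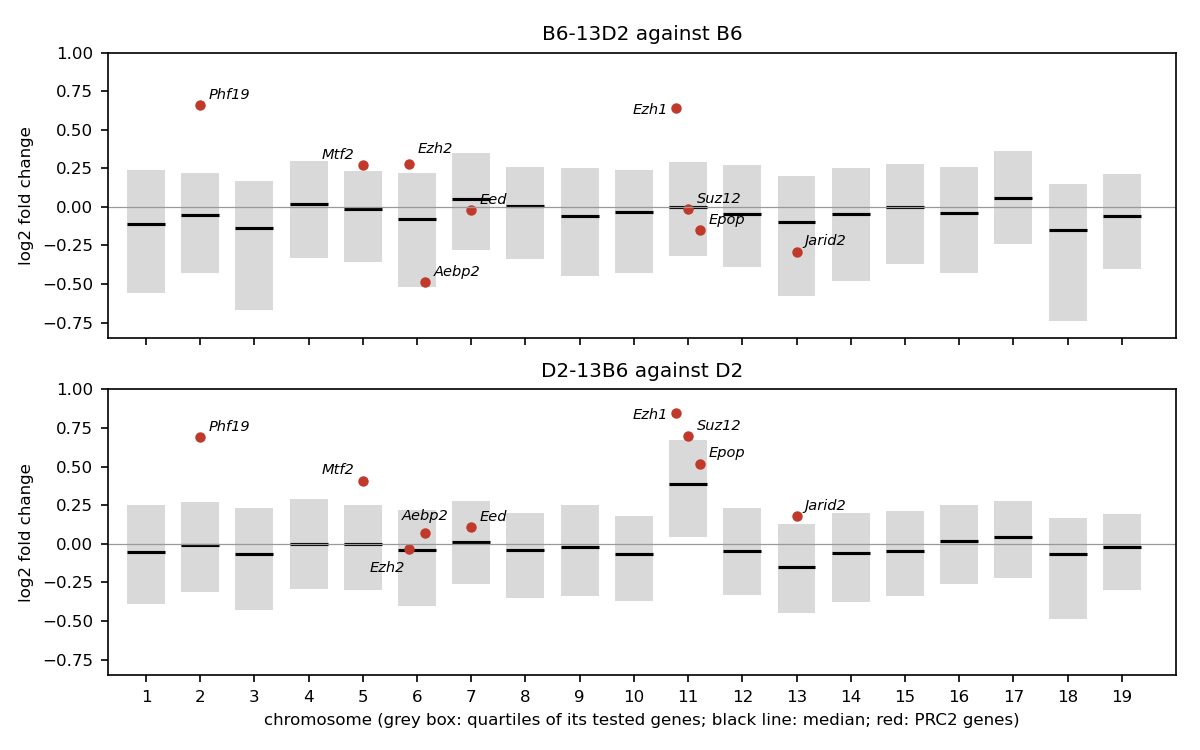
Fitted log2 fold change of the PRC2 genes (red points) over the quartiles (grey boxes) and median (black line) of tested genes on each autosome, for each congenic line against its background strain. In D2-13B6 against D2 the chromosome 11 box is raised, with Ezh1 and Suz12 above its upper quartile and Epop inside it; in B6-13D2 against B6 Ezh1 lies far above a chromosome 11 box centred near 0.

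Ratios of transcripts within a library show how the balance of the complex differed, and they do not depend on library scaling. Per kb, the ratio of Ezh2 to Ezh1 was 6.53 ± 0.201 in B6 and 5.96 ± 0.511 in D2, with 5.09 ± 0.269 in B6-13D2 and 3.24 ± 0.0849 in D2-13B6 (SD, n = 3). The ratio was lowest in D2-13B6, with no overlap with any other group, and the B6-13D2 libraries were below those of both parental strains. The ratio of Suz12 to Ezh2 was 3.59 ± 0.0275 in B6 and 4.13 ± 0.335 in D2, with 2.93 ± 0.0443 in B6-13D2 and 6.86 ± 0.213 in D2-13B6. The congenic lines thus lay at the opposite ends of this ratio. Ezh1 and Suz12 lie on chromosome 11, whose median log2 fold change in D2-13B6 against D2 was 0.39, while Ezh2 and Eed lie elsewhere. The part of that chromosome-wide difference in the D2-13B6 ratios was not tested.

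Between the core genes, Suz12 to Eed was 1.83 ± 0.00459 in B6 and 1.84 ± 0.0437 in B6-13D2, and rose to 2.29 ± 0.0579 in D2 and 3.46 ± 0.0652 in D2-13B6. To compare the forms of the complex, Mtf2 of PRC2.1 was set against Jarid2 of PRC2.2. The ratio was 1.48 ± 0.00202 in B6 and 1.65 ± 0.024 in D2, with 2.18 ± 0.0585 in B6-13D2 and 1.94 ± 0.0357 in D2-13B6, so both congenic lines lay above both parental strains without overlap. Mtf2 to Aebp2 was highest in B6-13D2, at 5.16 ± 0.0735 against 3.07 ± 0.148 in B6, 2.96 ± 0.215 in D2 and 3.73 ± 0.107 in D2-13B6. These are ratios of RNA, and protein was not measured.

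**Figure D4:**
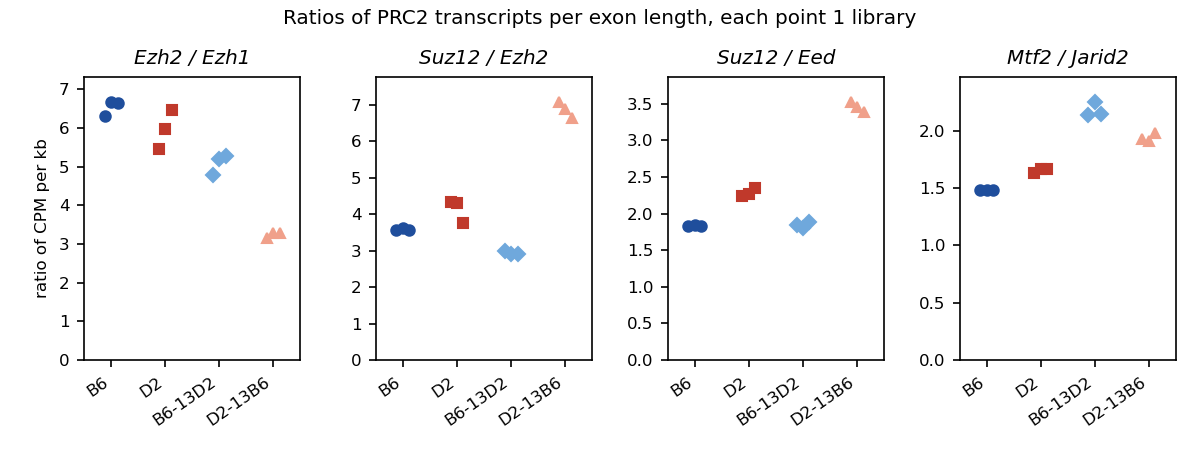
Ratio of pairs of PRC2 transcripts, each in CPM per kb of merged exon, with 1 point per library and axes from 0. Ezh2 to Ezh1 is lowest and Suz12 to Ezh2 and Suz12 to Eed are highest in D2-13B6. Ezh1 and Suz12 lie on chromosome 11, which was raised in D2-13B6 against D2. Mtf2 to Jarid2 is higher in both congenic lines than in both parental strains.

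Other parts of the complex were taken from a list. Of 6 listed (Rbbp4, Rbbp7, Phf1, Lcor, Lcorl and Ezhip), D2 against B6 gave 1 higher and 1 lower call, B6-13D2 against B6 gave 2 higher and 2 lower, and D2-13B6 against D2 gave 3 higher. Over all genes 60.0%, 58.3% and 57.3% were called. The count in D2 against B6 fell to 1 without B6 replicate 3, and that in B6-13D2 against B6 fell to 2 without B6 replicate 1, B6 replicate 3 or B6-13D2 replicate 3. Rbbp4, a histone-binding subunit, had a mean of 508 ± 12.1 CPM in B6 and 355 ± 5.7 in D2, with 546 ± 14.8 in B6-13D2 and 379.8 ± 3.53 in D2-13B6 (SD, n = 3). Its levels followed the background, with a fall in D2 against B6 (log2 -0.52; edgeR, adjusted p 3.28e-10) and small increases in each congenic line. Rbbp7, its close relative, was called in none of these comparisons.

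Phf1, the Polycomb-like gene besides Mtf2 and Phf19, was at 9.72 to 11.9 CPM by group mean and was lower in B6-13D2 than in B6 (log2 -0.29; edgeR, adjusted p 0.00912). Lcor and Lcorl are PRC2.1 partners. Lcor was higher in D2 than in B6 (log2 0.34), and Lcorl was higher in both congenic lines (0.23 on the B6 and 0.30 on the D2 background). Ezhip, an inhibitor of the complex, was near the detection limit, with a mean of 0.632 to 3.32 CPM by group, lowest in B6-13D2 (log2 -0.83 against B6) and highest in D2-13B6 (1.35 against D2; edgeR, adjusted p 0.000162).

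A list of demethylases of the mark and their relatives held Kdm6a, on the X chromosome, Kdm6b, on chromosome 11, and Uty, on the Y chromosome. Whether Uty removes the mark was not tested. Of these 3, 2 were called lower in D2 against B6, 3 lower in B6-13D2 against B6 and 2 higher in D2-13B6 against D2, where 60.0%, 58.3% and 57.3% of all genes were called. The 3 calls in B6-13D2 against B6 fell to 1 with DESeq2, with RLE size factors, with the filter on mean CPM, with only the libraries compared and without B6 replicate 1. Kdm6b had a mean of 123 ± 5.03 CPM in B6 and 110.2 ± 6.25 in D2, with 113 ± 1.13 in B6-13D2 and 219 ± 1.81 in D2-13B6 (SD, n = 3). Its rise in D2-13B6 over D2 (log2 0.99; edgeR, adjusted p 1.1e-12) was well above the chromosome 11 median. Kdm6a was lower in D2 (log2 -0.47) and in B6-13D2 (-0.45) than in B6, and Uty differed by 0.20 or less on the log2 scale in these comparisons.

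Writers of methylation at lysine 36 of histone H3, a mark that hinders PRC2, were listed as Nsd1, Nsd2, Nsd3, Setd2 and Ash1l. For D2 against B6, 3 passed as higher and 2 as lower. Nsd1 was the weakest of these 5 calls (log2 -0.089, edgeR adjusted p 0.0447). The count was 4 with DESeq2, with RLE size factors, with no filter and with only the libraries compared, among other settings. In B6-13D2 against B6, 1 was higher and 3 lower, and in D2-13B6 against D2, 1 was higher and 2 lower. Over all genes 60.0%, 58.3% and 57.3% were called. Setd2 was lower in D2 (log2 -0.38) and in B6-13D2 (-0.33) than in B6 and higher in D2-13B6 than in D2 (0.15). Ash1l was lower in B6-13D2 (-0.47) and in D2-13B6 (-0.26) than in its background strain. Nsd2 rose in B6-13D2 (0.27), Nsd3 fell in both congenic lines (-0.21 and -0.12), and Nsd1 was called in neither (-0.046 and -8.5e-05).

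Genes that PRC2 is known to silence in ES cells were read from a list of 61 developmental regulators, of which 53 were tested. D2 cells had 25 called higher than in B6 cells and 4 lower, and the median log2 fold change was 0.43. In B6-13D2 against B6, 4 were higher and 39 lower, with a median of -1.15. In D2-13B6 against D2, 8 were higher and 27 lower, with a median of -0.57. Over all genes the calls were 29.8% higher and 30.3% lower in the first of these comparisons, 25.4% and 32.9% in the second and 27.6% and 29.7% in the last, with medians of 0.012, -0.035 and 0. The summed level was 263 to 272 CPM in B6 and 319 to 357 in D2, with 159 to 170.3 in B6-13D2 and 207 to 214 in D2-13B6. The list thus stood at its lowest in B6-13D2 and its highest in D2, the same order of groups as the fibroblast sum, and how far fibroblast RNA carries these transcripts was not tested. Several of the list (Gata3, Gata4, Gata6, Sox1, Sox17, Cdx2, Eomes, Hand1, Pax6 and Neurog2) also mark other cell types.

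By mean log2 CPM over all 12 libraries, the highest of the listed targets were Twist1, Cdkn2a and Wnt5a; the order differed between groups. Olig2, a neural transcription factor named here after its values were seen, was the highest of the list in B6-13D2 at 39.2 ± 3.18 CPM (SD, n = 3). It stood at 24.6 ± 2.53 CPM in B6, and at 0.0535 ± 0.0332 and 0.0756 ± 0.0384 CPM in D2 and D2-13B6. Twist1, a mesenchymal transcription factor, had a mean of 31.9 ± 3.49 CPM in B6 and 50.9 ± 4.39 in D2, with 10.9 ± 1.47 in B6-13D2 and 26.8 ± 2.02 in D2-13B6 (SD, n = 3). Wnt5a, a secreted ligand, ran in parallel at 24.7 ± 2.12, 46.6 ± 2.56, 6.69 ± 0.401 and 23.8 ± 1.23 CPM. Cdkn2a, which encodes cell cycle inhibitors, was at 28.9 ± 1.95 CPM in B6 and 36.9 ± 4.49 in D2, and at 18.7 to 21.1 CPM in the libraries of both congenic lines. Each of the 3 was called higher in D2 and lower in both congenic comparisons.

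The called target with the largest increase in B6-13D2 over B6 was Sox1, a neural factor, at 7.04 ± 1 CPM against 3.02 ± 0.297 (log2 1.22; edgeR, adjusted p 3.38e-07). In D2-13B6 over D2 it was Pax2, at 0.857 ± 0.0794 CPM against 0.255 ± 0.0757 (log2 1.72; edgeR, adjusted p 0.000678). Pax6, an eye and brain factor, had the largest decrease in both, with log2 values of -2.79 and -2.29, and did not exceed 1.23 CPM in any library. Pax6 and Pax2 thus rest on few reads.

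**Figure D5:**
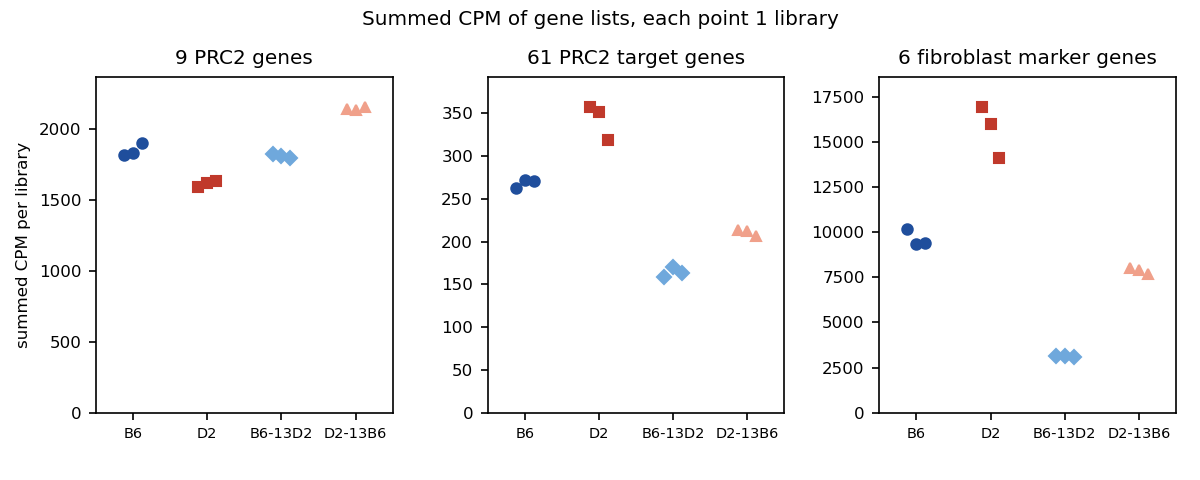
Summed CPM of the 9 PRC2 genes, of 61 listed PRC2 target genes and of 6 fibroblast genes, with 1 point per library and axes from 0. The PRC2 sum is highest in D2-13B6 and lowest in D2, whereas the target and fibroblast sums are highest in D2 and lowest in B6-13D2. Suz12 and Epop, both on chromosome 11, had the largest rises in mean CPM from D2 to D2-13B6 (372 to 605 and 344 to 493).

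The remaining contrasts set each congenic line against the other groups. In B6-13D2 against D2, 6 members were called higher and 1, Aebp2, lower, where 74.6% of all genes were called (36.7% higher, 38.0% lower). The Jarid2 call there (log2 0.08) was lost without D2 replicate 2, B6-13D2 replicate 1 or B6-13D2 replicate 3. The largest fold was that of Phf19, 3.09 (95% interval 2.34 to 4.09; edgeR, adjusted p 1.07e-06). In D2-13B6 against B6, 4 were higher (Ezh1, Suz12, Mtf2 and Epop) and 3 lower (Ezh2, Eed and Jarid2), where 59.0% of genes were called (24.5% higher, 34.6% lower). The higher genes were 41.5% of these calls, and 50.8% with only the libraries compared. Aebp2 just missed the call there (log2 -0.084, edgeR adjusted p 0.0501) and passed it without B6 replicate 3, D2 replicate 3 or B6-13D2 replicate 2. Phf19 was not called there (log2 -0.28), but was called lower without D2-13B6 replicate 3 (-0.52). Between the congenic lines, D2-13B6 had more Suz12 (fold 1.59), Epop (1.45), Aebp2 (1.32) and Jarid2 (1.07) and less Ezh2 (0.678), Phf19 (0.522) and Eed (0.845), with 70.2% of genes called (38.4% higher, 31.8% lower). Ezh1 and Mtf2 were not called between them, at log2 0.086 and -0.066, although Ezh1 was without B6-13D2 replicate 1 (0.13). Mtf2 was called lower in D2-13B6 with DESeq2 (-0.075), with the filter on mean CPM (-0.092), with only the libraries compared (-0.11) and without D2 replicate 3 (-0.071).

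Averaged over both segments, the D2 background had less Ezh2 (log2 -0.41), Eed (-0.31), Jarid2 (-0.13), Mtf2 (-0.14) and Phf19 (-0.95) than the B6 background, and more Suz12 (0.31), Epop (0.20) and Aebp2 (0.12). Between the parental strains themselves Epop (-0.13) and Aebp2 (-0.15) were called lower in D2 and Suz12 (-0.051) was not called. The chromosome 11 median of this average was 0.20, relative to which Suz12 was at 0.10 and Epop at -0.0054. These 8 calls stand beside 73.5% of all genes called, 38.7% higher and 34.7% lower. Averaged over both backgrounds, the D2 segment went with less of 7 members, from log2 -0.36 for Suz12 to -0.064 for Eed, and with more Ezh2 (0.16). These averages join unlike effects: on the B6 background Ezh1 (0.64) and Mtf2 (0.27) were called higher with the D2 segment, and Suz12 (-0.013) and Eed (-0.02) were not called. The chromosome 11 median of this average was -0.19, relative to which Suz12 was at -0.17, Epop at -0.15 and Ezh1 at 0.083. That made 8 calls, against 43.9% of all genes (16.5% higher, 27.3% lower). The count was 5 with RLE size factors, where Ezh1, Eed and Mtf2 were lost. Eed was also lost with no filter and in most fits that left out a single library, and Ezh1 and Mtf2 in some of those fits. The share of higher genes among all calls moved from 37.7% to 47.7% with RLE size factors.

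Congenic against parental groups, a contrast that also measures how far the effect of the segment depended on the background, gave calls for 8 of 9 members. Over all genes 64.5% were called, 31.1% higher and 33.4% lower. On average Ezh1 was higher in the congenic lines by log2 0.75, Phf19 by 0.67, Suz12 by 0.35, Mtf2 by 0.34, Epop by 0.18 and Ezh2 by 0.12. Aebp2 (-0.21) and Jarid2 (-0.053) were lower, the latter with a call that was lost with DESeq2, RLE size factors or no filter and in 9 of 12 fits without a single library. These averages also join unlike effects: in B6-13D2 against B6 Suz12 was at -0.013 and Epop was called lower (-0.15), and in D2-13B6 against D2 Ezh2 was at -0.033. Relative to the chromosome 11 median of 0.21, Ezh1 was at 0.54, Suz12 at 0.14 and Epop at -0.02. Eed was not called (0.045; edgeR, adjusted p 0.12), though it was with RLE size factors (0.077, adjusted p 0.0093).

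Over the 12 libraries, which share 4 groups of 3, some members had like patterns in log2 CPM. The highest Pearson correlations were Suz12 with Epop (0.93; Spearman 0.52), Ezh1 with Mtf2 (0.92; 0.80), Ezh2 with Eed (0.81; 0.80), Ezh2 with Phf19 (0.81; 0.82) and Eed with Phf19 (0.80; 0.76). The lowest was Ezh2 with Aebp2 (-0.71; -0.34). The catalytic genes had little in common (0.25; 0.22). With 4 groups these values describe the group means and carry no test. Suz12 and Epop are both on chromosome 11 and both stood highest in D2-13B6, at 605 and 493 CPM by group mean.

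The non-members most like Ezh2 were Ddx27 (Pearson 0.989), Sarnp (0.980) and Zfp414 (0.980), on chromosomes 2, 10 and 17. Those most like Suz12 were Psmd12 (0.993) and Kpnb1 (0.990), both on chromosome 11, and Tmppe (0.990), on chromosome 9. Of the 50 genes most like Suz12, 31 were on chromosome 11 (62%), and of the 50 most like Ezh2, 0 were, where 8.13% of the 11409 genes compared lie on that chromosome. Psmd12 had a mean of 227 CPM in D2-13B6 and 157 to 159 CPM elsewhere, the same shape as Suz12.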

How the data were processed

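RNA from 12 cultures (4 groups, 3 libraries each) was sequenced in 150 base paired reads from an mRNA kit, per the labels' protocols. The authors deposited a matrix of expected counts, genes by libraries, whose name credits EMASE, a program that shares out reads with more than a single mapping among the candidate genes and alleles. Bowtie 1.0.0, edgeR 3.34.1 and the build mm10 are named, without a role, in the submitters' processing notes. Whether counting used the strand is not given in the sources used here, so overlapping genes are uncertain: Tmed5 (1066 to 2415 counts) overlaps Mtf2 and Gm26563 (61.2 to 441 counts) overlaps Suz12, both on the opposite strand. Eed, Suz12 and Mtf2 had counts that were not whole (tolerance 1e-06) in 12 of 12 libraries, and the reason was not tested. No column was left out (0 unused).

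Symbols and positions came from GENCODE M21 (GRCm38), where 42462 of 43346 IDs were found. After rounding, the expected counts went through edgeR 4.0.16 (R 4.3.3) with the filterByExpr filter at a minimum count of 10, TMM, a quasi-likelihood fit of 4 group means over all 12 libraries, and Benjamini-Hochberg adjustment over 17148 genes at 0.05. Standard errors were taken from each log2 fold change and its F value, and intervals are 95%. CPM use TMM library sizes, and CPM per kb divide by merged exon length. DESeq2 1.42.0 and the other settings of the closing section were alternatives. On data simulated for D2 against B6 (16808 genes), edgeR recovered 80.6% of 98 genes changed by log2 1 and 54.1% of 98 changed by 0.5, with 6 false calls. The simulation left all other genes equal between groups, whereas 60.0% of genes were called in the data. It therefore does not measure false calls where most genes differ. No pair of libraries in a group agreed within counting noise (chi-square per degree of freedom at least 1.96).

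The named genes were the 9 members, each gene of the lists of other PRC2 parts, demethylases and lysine 36 writers, and of the target list the 3 most abundant and the called genes with the highest and lowest change in each congenic comparison. For Ezh2 and Suz12 the 3 most correlated genes were named, among those whose log2 CPM averaged 2 or more. Members, lists and tests were chosen with earlier results of these data known. Promoter sequences are from RefSeq (GRCm38.p6).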

Additional observations from a re-analysis of the deposited data

Results flagged for a closer look

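For 8 of the 9 members the effect of the D2 segment on the B6 background (B6-13D2 against B6) differed from its effect on the D2 background (D2 against D2-13B6), by a test of the difference in edgeR. The difference of the log2 effects was 1.49 for Ezh1 (adjusted p 2.67e-12), 1.35 for Phf19 (0.000489), 0.69 for Suz12 (1.17e-09) and 0.68 for Mtf2 (8.2e-10). It was 0.37 for Epop (0.000103), 0.25 for Ezh2 (0.0129), -0.11 for Jarid2 (0.0392) and -0.42 for Aebp2 (1.11e-06). The Jarid2 difference was not called with DESeq2, with RLE size factors, with no filter or in 9 of 12 fits that left out a single library. Of all genes tested 64.5% passed the same test, so a difference of this kind is the usual case here. By algebra the test also equals both congenic lines against both parental strains, and anything shared by the congenic libraries enters it.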

How the results depend on the processing

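The number of members called stayed within 1.5 times in the other contrasts. For the segment averaged over backgrounds it was 8, and 5 with DESeq2, RLE size factors or a mean CPM of at least 1; leaving out single libraries gave 5 to 8, with 5 without B6 replicate 3, B6-13D2 replicate 3 or D2-13B6 replicate 3. Signs turned mainly where the difference was not called; the cause was not tested. Suz12 in D2 against B6 became 0.0024 with DESeq2 or RLE. In B6-13D2 against B6, Eed became 0.044 with DESeq2 or RLE, 0.019 with the mean CPM filter, 0.017 with only the libraries compared and -0.048 to 0.0036 with single libraries left out, the highest without B6 replicate 3. Suz12 there became 0.051 with DESeq2 or RLE, 0.0064 with no filter, 0.026 with the mean CPM filter, 0.024 with only the libraries compared, and -0.042 to 0.0097 with single libraries left out (0.0097 without B6 replicate 3, 0.0038 without D2 replicate 1, 0.00035 without B6-13D2 replicate 2). Ezh2 in D2-13B6 against D2 ranged from -0.083 to 0.057 over these fits, the highest without D2 replicate 3. Epop in B6-13D2 against D2 was 0.0052 with no filter and -0.06 to 0.035 without single libraries (0.035 without D2 replicate 1, 0.012 without B6-13D2 replicate 3, 0.00065 without D2 replicate 2). For the background average, Ezh1 was 0.005 with DESeq2 or RLE and -0.035 to 0.0012 without single libraries, the highest without B6-13D2 replicate 1. For the segment average, Phf19 was 0.017 with DESeq2, 0.015 with RLE, 0.023 with the mean CPM filter, and -0.11 to 0.11 without single libraries (0.031, 0.10 and 0.11 without B6 replicate 3, D2 replicate 2 and D2-13B6 replicate 3).

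After subtraction of the chromosome median, Jarid2 was 0.01 in D2-13B6 against B6 and 0.047 in the congenic average, Epop was -0.0054 in the background average and -0.02 in the congenic average, and Ezh1 was 0.083 in the segment average; by construction this removes what the chromosome shares. The replicate numbers did not pair the libraries: libraries with the same number had a mean correlation of deviations of -0.0108 over 18 pairs. With the replicate number as a block no member's call was lost, and Aebp2 in D2-13B6 against B6 (-0.084) gained one. RLE size factors moved the median of all genes by at most 0.063 on the log2 scale. Phf19, with 40 to 159 counts per library, is the least precise member.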
